A study of Penaeus monodon with 38 samples.

Results

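The probes described here were designed on expressed sequence tags (ESTs), short single-pass cDNA reads, from a hepatopancreas library of the black tiger shrimp Penaeus monodon. They were chosen by the probe annotation in the array files, which names that library or its clone prefix HPA-N-S01, and no measured value entered the choice. The rule found 351 of the 2240 probes on the array. They belong to 145 of 921 target sequences, of which 70 had 3 probes, 66 had 2 and 9 had 1. None of the 351 probes carries a gene name in the files, so each is given by its clone and by the first and last base of the probe in the EST, and no function is given for any of them.

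The study measured RNA of adult female shrimp on 38 single-colour arrays. Wild-caught females were sampled before removal of 1 eyestalk (preablation), 2 h and 24 h after it, and then at the vitellogenic, round cortical rod and elongated cortical rod stages of the ovary. The first 3 stages are called previtellogenic below and the last 3 vitellogenic phase. Wild ovary and wild eyestalk had 2 arrays per stage, and wild cephalothorax had 1 array per stage. Captive females, reared in grow-out ponds, were sampled at 4 stages: preablation, previtellogenic after ablation, vitellogenic and elongated cortical rod. These 4 stages had 1 array each for ovary and for eyestalk. All females sampled after the preablation stage had lost 1 eyestalk. The previtellogenic phase therefore holds both unablated and ablated females, and the vitellogenic phase ablated females alone. The later stages cannot be told apart from a longer time after ablation. The design text gives, for ovary, pools of 4 and of 5 wild animals and pools of 3 captive animals, and it states no pool sizes for the other tissues. RNA was amplified before labelling, and p-values measure the spread between these arrays.

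The hepatopancreas is the digestive gland of decapod crustaceans. It secretes digestive enzymes, takes up nutrients, and stores lipid and glycogen, and in penaeid shrimp it is also one of the tissues that make the yolk protein precursor vitellogenin. The gland lies in the cephalothorax, the fused head and thorax, which in a female also holds gills, heart, muscle, haemocytes and the front lobes of the ovary. No array was hybridised with hepatopancreas alone. In such bulk samples, fewer cells of a type and less RNA per cell cannot be told apart.

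The probe sequences below carry the patterns described further on, and all are given 5′ to 3′ as the array files list them. Capitals in the first 3 mark a run of 33 bases that 3 clones share on the same strand, in clones that were among the brightest in cephalothorax.
HPA-N-S01-0642 (bases 128 to 164): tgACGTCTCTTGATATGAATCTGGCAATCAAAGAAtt
HPA-N-S01-0731 (bases 216 to 253): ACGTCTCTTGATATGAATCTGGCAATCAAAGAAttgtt
HPA-N-S01-0698 (bases 112 to 146): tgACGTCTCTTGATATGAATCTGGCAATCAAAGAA
In the following 2 pairs, capitals mark 31 and 32 bases by which the members of a pair are complementary to each other.
HPA-N-S01-0571 (bases 211 to 245): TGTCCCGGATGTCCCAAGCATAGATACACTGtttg
HPA-N-S01-0014 (bases 439 to 473): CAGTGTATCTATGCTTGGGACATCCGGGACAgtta
HPA-N-S01-0601 (bases 192 to 226): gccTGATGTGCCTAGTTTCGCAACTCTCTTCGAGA
HPA-N-S01-0183 (bases 522 to 556): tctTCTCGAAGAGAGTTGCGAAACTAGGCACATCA
The next pair, bright in eyestalk, shares the 34 bases in capitals on the same strand.
HPA-N-S01-0546 (bases 430 to 464): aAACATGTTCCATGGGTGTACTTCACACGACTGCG
HPA-N-S01-0718 (bases 420 to 454): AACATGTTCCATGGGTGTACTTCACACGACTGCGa
The last 5 probes stand for a bright cephalothorax EST, an EST detected in cephalothorax alone, the largest rise between the cephalothorax phases, an EST lower in cephalothorax than in ovary, and the largest difference between captive and wild ovary.
HPA-N-S01-0577 (bases 48 to 81): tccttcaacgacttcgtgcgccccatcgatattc
HPA-N-S01-0001 (bases 332 to 366): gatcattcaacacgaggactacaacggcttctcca
HPA-N-S01-0018 (bases 533 to 567): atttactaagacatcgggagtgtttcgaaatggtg
HPA-N-S01-0379 (bases 225 to 259): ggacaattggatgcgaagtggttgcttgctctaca
HPA-N-S01-0139 (bases 185 to 219): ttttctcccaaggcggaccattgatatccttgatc

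The median intensity of an array was between 72.3 and 384, and 1 spot of these probes was at the scanner ceiling of 65535. The arrays hold no control spots, so a non-specific level was set on each as the 90th percentile of 24 probes designed on vertebrate sequences, and a probe over it is called above the level. On the log2 normalised scale this level lay at 7.35 to 7.59 on the cephalothorax arrays, 7.40 to 8.04 on the wild ovary arrays and 7.77 to 8.86 on the wild eyestalk arrays, so it was not the same in the 3 tissues. Slides were inferred here and below from raw file names that arrays share, since no label states the slide. By these names the wild ovary arrays filled 3 slides, the wild eyestalk arrays 3 others and the cephalothorax arrays 2 others. Slide so inferred and tissue cannot be told apart. The labelled tissues were set against lists of named marker genes. In cephalothorax 12 of 13 muscle probes and 3 of 3 haemocyte probes were higher than in ovary. Of 20 oocyte probes, 17 were higher in cephalothorax than in eyestalk and 13 lower than in ovary. The oocyte list includes vitellogenin, which the hepatopancreas also makes, so it does not mark ovary alone. Of the 23 named digestive gland probes, 2 to 6 were above the level on a cephalothorax array, and against ovary 8 were higher and 9 lower. None of the 351 EST probes is in any of these lists.

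Hepatopancreas ESTs were detected mostly in cephalothorax. The share of the 351 probes above the level ran from 63.0% to 73.2% over the 6 cephalothorax arrays, with a median of 66.7%. It was 25.1% to 39.0% over the 12 wild ovary arrays (median 35%) and 23.4% to 38.8% over the 12 wild eyestalk arrays (median 29.6%). No ovary or eyestalk array reached the lowest cephalothorax array. All probes of the array had medians of 46.5% in cephalothorax, 44.4% in wild ovary and 30.7% in wild eyestalk. The eyestalk EST library was also highest in cephalothorax, with medians of 45.4%, 31.9% and 34.6% in the same order. The ovarian EST library on the same arrays was ordered otherwise, with 70.1% to 87.0% of its 345 probes above the level in wild ovary and 46.1% to 67.2% in cephalothorax. In captive animals the share of hepatopancreas probes was 21.9% to 39.9% in ovary, where the preablation array was the lowest, and 19.1% to 28.8% in eyestalk. All probes had 30.9% to 46.4% and 22.4% to 29.9% there.

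**Figure D1:**
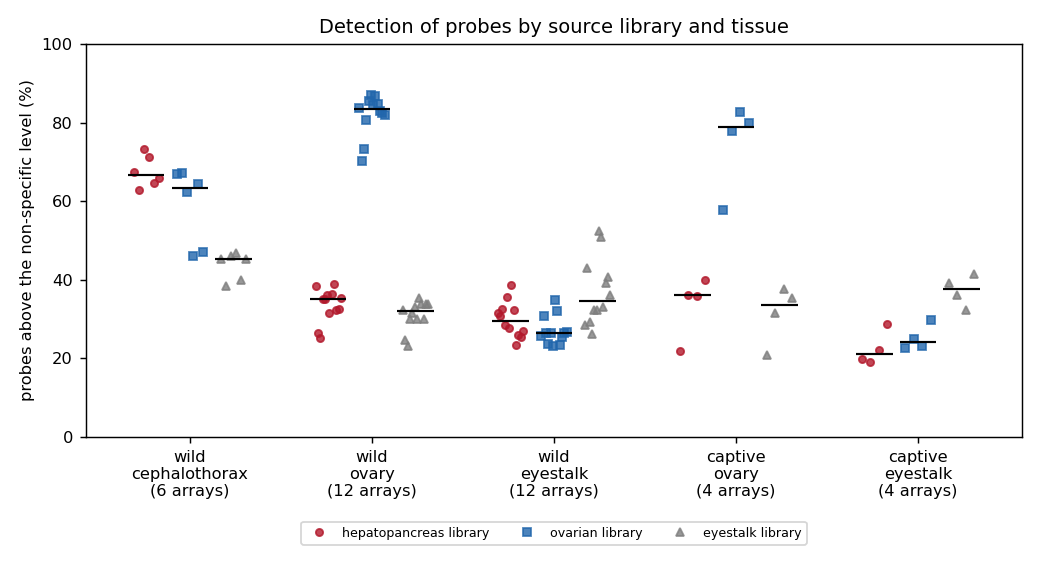
Share of probes above the non-specific level (%, vertical axis) by origin and tissue, 1 point per array, for the hepatopancreas (351 probes), ovarian (345) and eyestalk (130) EST libraries; lines are medians. Hepatopancreas probes lay at 63.0% to 73.2% in cephalothorax and at 39.9% or lower in every ovary and eyestalk array.

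Of the 351 probes, 186 (53.0%) were above the level on all 6 cephalothorax arrays, beside 724 (32.3%) of all 2240 probes. The counts for all 12 wild ovary arrays and all 12 wild eyestalk arrays were 69 (19.7%) and 47 (13.4%), where all probes had shares of 28.3% and 15%. Another 49 probes (14.0%) were above it on none of the 38 arrays, beside 21.2% of all probes. On every array 29 (8.26%) were above it, close to the 8.21% of all probes. A group of 62 probes (17.7%), from 40 targets, was above the level on every cephalothorax array and on none of the 24 wild ovary and eyestalk arrays. The whole array had 80 such probes (3.57%), with 0 among the 345 ovarian and 0 among the 130 eyestalk library probes. The reverse classes were empty: 0 of the 351 probes were above the level throughout wild ovary alone or throughout wild eyestalk alone. This was close to the shares of all probes, which were 15 (0.67%) and 12 (0.54%). The eyestalk library also had 0 of its 130 probes above the level throughout wild eyestalk alone. In 15 targets every probe fell in the cephalothorax-only group. These counts moved with the level. At the 75th and the 100th percentile of the vertebrate probes, the cephalothorax-only group had 39 and 77 probes (11.1% and 21.9%). The shares of all probes were 2.2% and 4.4%. On all cephalothorax arrays 232 and 171 (66.1% and 48.7%) were above the level, beside 44.2% and 25.6% of all probes. On all wild ovary arrays the counts were 100 and 24 (28.5% and 6.84%), beside 35.8% and 16.8%. On all wild eyestalk arrays they were 94 and 24 (26.8% and 6.84%), beside 27.0% and 8.84%. Over the 38 arrays, 59 and 8 (16.8% and 2.28%) were above it on every one, beside 15.3% and 3.79% of all probes. On none were 27 and 83 (7.69% and 23.6%), beside 10.3% and 34.5%. The median GC content of the 62 was 45.7%, equal to that of all hepatopancreas probes, and that of the 32 probes above the level on all 30 wild arrays was 50%.

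The first comparison asked which hepatopancreas ESTs differ between the wild tissues. Against wild ovary, 193 of the 351 probes (55%) were higher in cephalothorax and 49 (14%) lower, where 23.8% of all 2240 probes were higher and 32.4% lower. Against wild eyestalk, 168 (47.9%) were higher and 76 (21.7%) lower, beside 21.2% and 33.1% of all probes. The median log2 difference was 0.71 against ovary and 0.35 against eyestalk, and over all probes it was -0.10 and -0.14. A probe was called where limma's p, after Benjamini-Hochberg adjustment over the 2240 probes, was under 0.05. With 6, 12 and 12 arrays per tissue, calls in either direction made up 56.2% and 54.3% of the whole array, and the members' calls include 24 and 22 probes that were above the level on no wild array. The muscle and haemocyte probes named above moved in the same direction, and their part in these counts was not tested.

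Large differences set these probes apart from the rest of the array. A log2 difference of 4 or more over ovary was found for 58 of the 351 probes (16.5%) and for 39 of the 1889 others (2.06%). Over eyestalk the counts were 48 (13.7%) and 15 (0.794%). At a log2 difference of 6 or more, 19 hepatopancreas probes and 11 others stood above ovary, and 15 and 1 stood above eyestalk. For 96 of the 351 probes (27.4%) the lowest cephalothorax array was above the highest wild ovary and eyestalk array, which held for 126 of all 2240 probes.

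**Figure D2:**
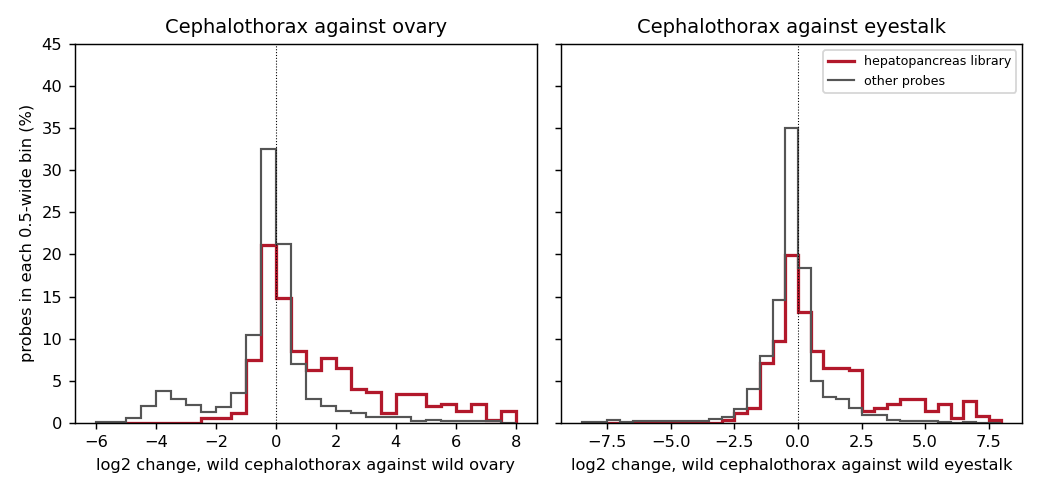
Distribution of the log2 difference of wild cephalothorax from wild ovary (left) and from wild eyestalk (right), in bins 0.5 wide, as the percentage of the 351 hepatopancreas library probes and of the 1889 other probes. The hepatopancreas curve extends to the right, with 16.5% and 13.7% of its probes at 4 or more, beside 2.06% and 0.794% of the others.

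The clone HPA-N-S01-0731 gave the largest difference. Its probe at bases 6 to 40 read 14.85, 15.17 and 15.64 (lowest, median and highest log2 normalised intensity) in cephalothorax, 7.00, 7.39 and 7.94 in ovary, and 7.29, 7.78 and 8.32 in eyestalk. All cephalothorax arrays were far above all others, and only 2 of 12 ovary arrays and 1 of 12 eyestalk arrays crossed the level. The difference was 7.85 ± 0.14 (SE) on the log2 scale, or 231-fold, against ovary (limma adjusted p = 3.68e-28), and 175-fold against eyestalk. Its second probe, at bases 216 to 253, was above the level only in cephalothorax, at 12.98 to 14.11, and was at least 58.1-fold higher there than in ovary and at least 36.5-fold higher than in eyestalk. An "at least" value is computed against the non-specific level, because no array of the other tissue was above it. Every other fold is taken against the values read, also where most arrays of the other tissue were under the level.

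The clone HPA-N-S01-0577 was higher in cephalothorax than in both other tissues at all 3 of its probes. At bases 48 to 81 it read 14.34, 15.01 and 15.49 in cephalothorax, 6.67, 7.28 and 7.85 in ovary, and 7.95, 8.70 and 10.24 in eyestalk. The cephalothorax arrays again did not overlap the others, while 9 of 12 eyestalk arrays were above the level, so this EST was measured in eyestalk too. At bases 48 to 81 the difference was 7.71 ± 0.26 over ovary (210-fold) and 6.10 ± 0.26 over eyestalk (68.7-fold). The ovary median of 7.28 lay under the lowest ovary level of 7.40, so the 210-fold was taken in part against undetected values. The clone's other probes were 118-fold and 197-fold higher than in ovary.

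HPA-N-S01-0571 (bases 211 to 245) read 14.91, 15.20 and 15.64 in cephalothorax, 6.91, 7.68 and 8.31 in ovary, and 7.50, 8.21 and 8.87 in eyestalk, a difference of 188-fold and 132-fold. It was above the level on 8 of 12 ovary arrays and on 3 of 12 eyestalk arrays. HPA-N-S01-0642 (bases 24 to 62) read 14.22, 15.20 and 15.64 in cephalothorax, 7.30, 7.50 and 7.95 in ovary, and 7.27, 7.53 and 7.97 in eyestalk. It was above the level on 3 ovary arrays and no eyestalk array, and was 187-fold higher than ovary and at least 110-fold higher than eyestalk. HPA-N-S01-0601 (bases 192 to 226) was more spread, at 12.97, 14.71 and 15.32 in cephalothorax, 6.89, 7.65 and 8.77 in ovary and 7.64, 8.80 and 9.74 in eyestalk, and its differences were 108-fold and 51.7-fold. For all 3 clones the lowest cephalothorax array exceeded every ovary and eyestalk array.

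Among the 62 cephalothorax-only probes, the lower bound on the difference from ovary ran from 1.22-fold to 79.3-fold with a median of 10.7-fold. Against eyestalk, 60 of them had a bound, with a median of 6.84-fold. The widest was HPA-N-S01-0698 (bases 24 to 62), which read 13.35, 13.92 and 14.53 in cephalothorax, 6.29, 6.49 and 6.67 in ovary, and 6.10, 6.55 and 6.89 in eyestalk, hence at least 79.3-fold and 49.7-fold higher. Clone HPA-N-S01-0706 was at least 77.8-fold higher than ovary at bases 12 to 46 and at least 59.1-fold at bases 360 to 394. Clone HPA-N-S01-0001 read 12.15, 13.26 and 13.47 in cephalothorax at bases 332 to 366, with 5.93, 6.16 and 6.57 in ovary and 6.05, 6.40 and 6.73 in eyestalk, so the bounds were 44.7-fold and 28.0-fold. Its probe at bases 576 to 611 gave at least 72.8-fold and 45.7-fold.

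**Figure D3:**
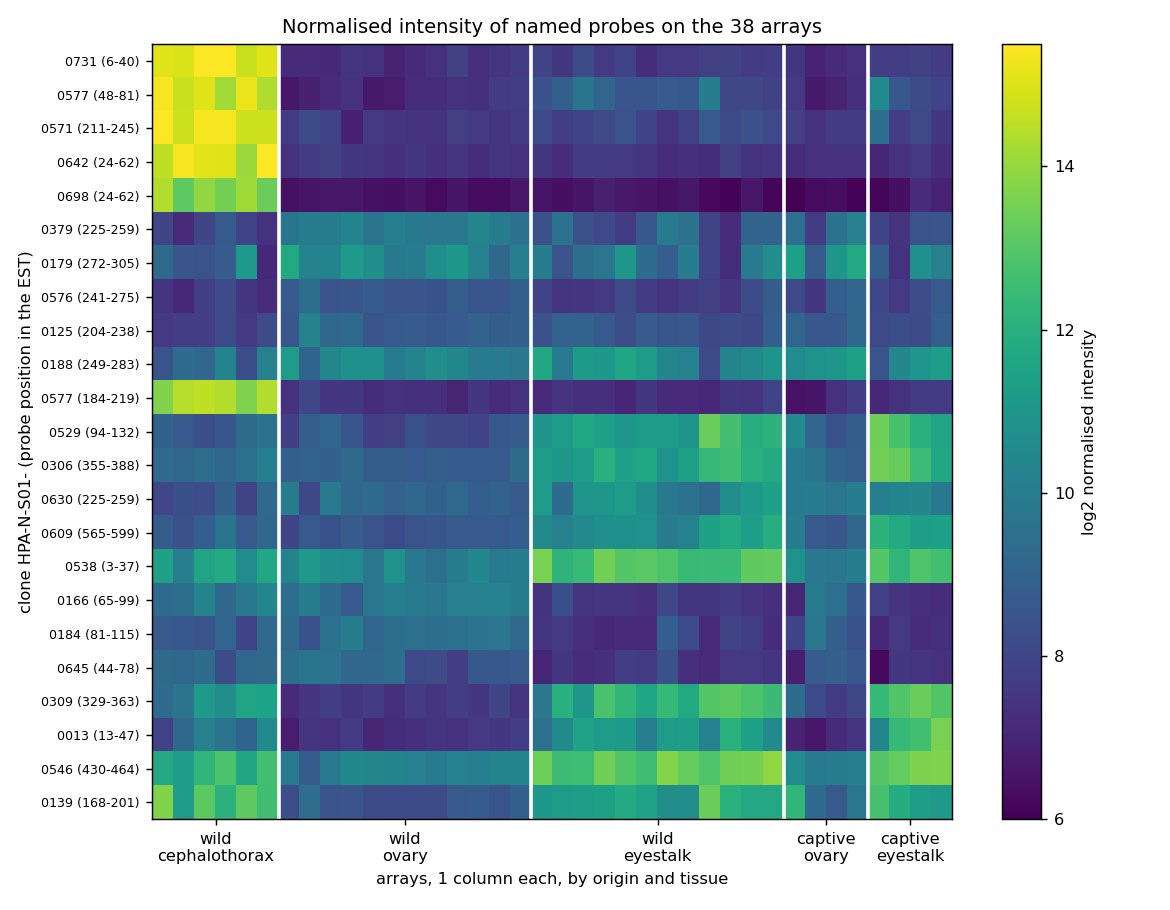
Log2 normalised intensity (colour scale) of 23 probes selected among those called higher or lower between wild tissues. The selection is not the 23 largest differences. Each probe has 1 line and each array 1 column, with the 38 arrays normalised together. The top lines, HPA-N-S01-0731 to HPA-N-S01-0698, are brightest in the 6 cephalothorax columns, and the lines of HPA-N-S01-0529 and HPA-N-S01-0546 are brightest in eyestalk.

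Probes of the same target mostly went together. Both contrasts called 155 probes (44.2%) higher in cephalothorax, beside 249 (11.1%) of all 2240 probes. Every probe did so in 54 of the 145 targets (37.2%), 51 of which had 2 or 3 probes, beside 76 (8.25%) of all 921 targets. The 20 targets with all 3 probes higher were HPA-N-S01-0001, HPA-N-S01-0010, HPA-N-S01-0157, HPA-N-S01-0176, HPA-N-S01-0181, HPA-N-S01-0211, HPA-N-S01-0296, HPA-N-S01-0301, HPA-N-S01-0307, HPA-N-S01-0516, HPA-N-S01-0523, HPA-N-S01-0577, HPA-N-S01-0595, HPA-N-S01-0606, HPA-N-S01-0611, HPA-N-S01-0626, HPA-N-S01-0720, HPA-N-S01-0724, HPA-N-S01-0735 and HPA-N-S01-0754. In 23 other targets some probes were higher in both contrasts and some were not. Opposite calls within a target were found for 5 targets against ovary and 5 against eyestalk, over the 8 clones HPA-N-S01-0036, HPA-N-S01-0412, HPA-N-S01-0641, HPA-N-S01-0687, HPA-N-S01-0713, HPA-N-S01-0723, HPA-N-S01-0742 and HPA-N-S01-0780. In HPA-N-S01-0601 the probe at bases 152 to 186 was at least 1.22-fold higher than ovary, although the probe at bases 192 to 226 gave 108-fold.

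Some hepatopancreas ESTs were lower in cephalothorax. Both contrasts called 20 probes (5.7%) lower, beside 184 (8.21%) of all probes, and 8 of the 20 were above the level on any cephalothorax array. Neither contrast called 55 probes (15.7%), beside 483 (21.6%) of all probes. HPA-N-S01-0379 was the only target with 3 probes all lower in both contrasts. At bases 225 to 259 it read 7.20, 8.04 and 8.83 in cephalothorax, 9.77, 10.12 and 10.53 in ovary and 7.26, 8.61 and 10.07 in eyestalk. Cephalothorax and ovary did not overlap, and the difference was -2.18 ± 0.30, or 4.52-fold lower than ovary (limma adjusted p = 3.1e-07), while the eyestalk values overlapped those of cephalothorax and differed by -0.80 ± 0.30. HPA-N-S01-0576 (bases 241 to 275) read 7.11, 7.53 and 8.34 in cephalothorax and 8.53, 8.68 and 9.60 in ovary, without overlap, a difference of -1.20 ± 0.19. HPA-N-S01-0179 (bases 272 to 305) was lower by -1.64 ± 0.50, and HPA-N-S01-0188 (bases 249 to 283) by -1.0 ± 0.40, whose limma adjusted p went from 0.034 to 0.0855 with slide as a random block.

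Several ESTs share stretches of sequence. Probes of different targets that share 20 or more bases were searched on both strands, and 51 of the 351 probes were in such a pair. In the 16 pairs of hepatopancreas probes on the same strand, the 2 log2 differences from ovary had the same sign in every pair, and they differed by a median of 0.51 and at most 1.51. The 3 clones that share the 33 bases printed above gave at least 53.5-fold for HPA-N-S01-0642, 58.1-fold for HPA-N-S01-0731 and 58.3-fold for HPA-N-S01-0698 at those probes. Whether such clones are 1 transcript or related genes, and cross-hybridisation between them, were not tested.

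Pairs on opposite strands read differently. There were 6 such pairs, from 3 pairs of clones, and in 4 of the 6 a probe was above the level on all 6 cephalothorax arrays while its complement was above it on none. HPA-N-S01-0014 (bases 439 to 473), complementary to the bright probe of HPA-N-S01-0571, read 6.75, 7.01 and 7.21 in cephalothorax, 6.86, 7.11 and 7.43 in ovary and 6.85, 7.16 and 7.40 in eyestalk. It was above the level on no wild array, and cephalothorax differed from ovary by -0.16 ± 0.10 (limma adjusted p = 0.19). HPA-N-S01-0183 (bases 522 to 556), complementary to HPA-N-S01-0601, read 5.97 to 6.28 in cephalothorax, 6.04 to 6.61 in ovary and 5.96 to 6.35 in eyestalk, likewise above the level on none of the 30 wild arrays. Of the clones HPA-N-S01-0516 and HPA-N-S01-0125, the first was above the level at bases 326 to 360 on all cephalothorax arrays, at 7.46 to 8.48, and its complement at bases 142 to 176 on none. At another position of these clones the order was the reverse: HPA-N-S01-0125 (bases 204 to 238) was above the level on 6 cephalothorax, 12 ovary and 9 eyestalk arrays, and HPA-N-S01-0516 (bases 268 to 302) on 2, 0 and 0. The labelled RNA was made from a T7 oligo dT primer and so has 1 orientation relative to the mRNA, and the files do not give the strand of each EST.

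**Figure D4:**
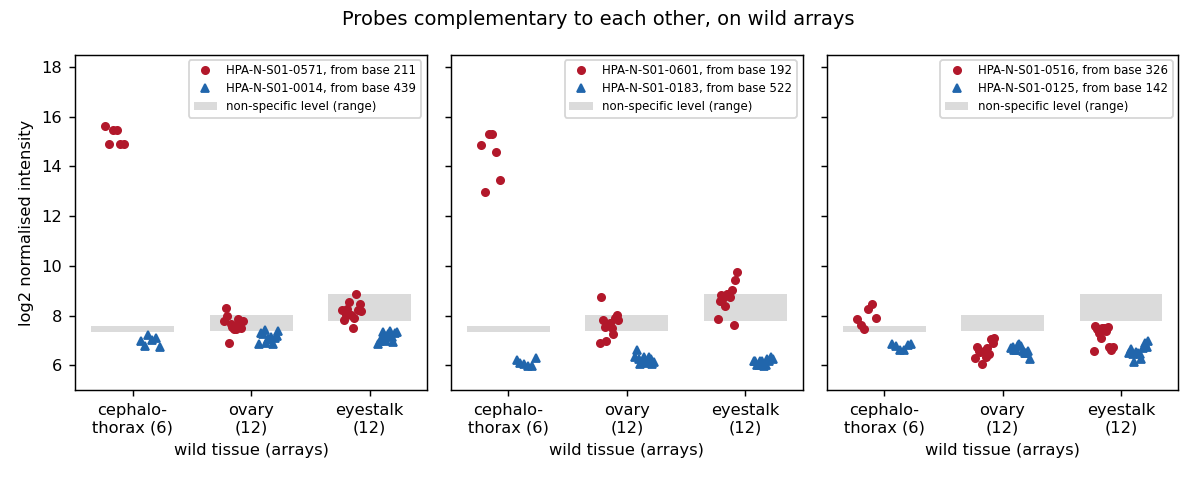
Log2 normalised intensity of 3 pairs of complementary probes on the wild arrays, 1 point per array, with the range of the non-specific level in grey. In the first pair HPA-N-S01-0571 lay at 14.91 to 15.64 in cephalothorax and HPA-N-S01-0014 at 6.75 to 7.21, below the level; the other pairs show HPA-N-S01-0601 with HPA-N-S01-0183 and HPA-N-S01-0516 with HPA-N-S01-0125.

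Between ovary and eyestalk, hepatopancreas ESTs were more often higher in eyestalk. Wild ovary was higher than wild eyestalk for 53 of the 351 probes (15.1%) and lower for 134 (38.2%), beside 28.6% and 37% of all probes. The share lower in ovary was thus close to that of the array, and the share higher in ovary was below it. The median difference was -0.13, and -0.06 over all probes. When the test was limited to the 115 probes above the level on at least 12 of these arrays, 86 were called, beside 771 of the 924 probes of the whole array that passed this filter.

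The eyestalk side held ESTs with large differences. HPA-N-S01-0309 (bases 329 to 363) read 7.20, 7.60 and 8.11 in ovary, 9.96, 12.52 and 13.30 in eyestalk and 9.49, 11.10 and 11.77 in cephalothorax. Ovary did not overlap either tissue, and eyestalk was 25.2-fold higher than ovary (-4.66 ± 0.30, limma adjusted p = 1.03e-14). HPA-N-S01-0013 (bases 13 to 47) read 6.81, 7.48 and 7.85 in ovary and 9.67, 11.40 and 12.28 in eyestalk, 12.7-fold apart and without overlap. HPA-N-S01-0529 (bases 94 to 132) read 7.85, 8.31 and 9.25 in ovary and 11.11, 11.52 and 13.51 in eyestalk, 10.7-fold apart, and eyestalk was also 6.92-fold above cephalothorax. HPA-N-S01-0306 (bases 355 to 388) read 9.33, 9.54 and 10.32 in cephalothorax, 8.86, 8.97 and 9.53 in ovary and 11.05, 11.79 and 12.81 in eyestalk. Its eyestalk arrays were all above the others, by 6.91-fold over ovary and 4.60-fold over cephalothorax.

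The overlapping clones HPA-N-S01-0546 and HPA-N-S01-0718 stood between these patterns. HPA-N-S01-0546 (bases 430 to 464) read 11.47, 12.21 and 13.02 in cephalothorax, 8.92, 10.36 and 10.65 in ovary, and 12.74, 13.54 and 14.11 in eyestalk. HPA-N-S01-0718 (bases 420 to 454) read 10.69, 11.76 and 12.58, then 9.24, 10.43 and 10.65, then 12.08, 13.36 and 13.78 in the same tissues. In both, ovary was the lowest tissue and overlapped neither of the others, eyestalk was the highest with some overlap with cephalothorax, and eyestalk exceeded ovary 8.81-fold and 7.78-fold. In all, 14 probes (3.99%) were higher in cephalothorax than in ovary and lower than in eyestalk, among them the 3 probes of HPA-N-S01-0538, beside 116 (5.18%) of all probes. The reverse pattern was found for 1 probe (0.285%), beside 169 (7.54%) of all probes.

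Ovary exceeded eyestalk for fewer measured ESTs. HPA-N-S01-0166 (bases 65 to 99) read 8.84, 10.13 and 10.43 in ovary and 7.37, 7.57 and 8.43 in eyestalk, without overlap and 4.97-fold apart (2.31 ± 0.17). HPA-N-S01-0184 (bases 81 to 115) was 3.77-fold higher in ovary, HPA-N-S01-0645 (bases 44 to 78) 2.73-fold and HPA-N-S01-0379 (bases 225 to 259) 2.60-fold. Some of the brightest targets of ovary or eyestalk were bright in all 3 tissues. As means over the probes of a target, HPA-N-S01-0637 read 12.12 in cephalothorax, 10.39 in ovary and 11.05 in eyestalk. In the same order HPA-N-S01-0543 read 10.04, 10.46 and 10.87, and HPA-N-S01-0705 read 9.90, 9.30 and 11.02.

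The next comparison asked whether these ESTs changed as the wild females matured. In cephalothorax, 38 of the 351 probes (10.8%) were higher in the vitellogenic phase and 4 (1.14%) lower, with 3 arrays per phase, beside 5.49% and 6.12% of all 2240 probes. The median change was 0.23, and 0.05 over all probes. The 38 risen probes belonged to 29 targets, rose by 0.72 to 2.83 on the log2 scale with a median of 1.34, and 27 of them were among the probes higher in cephalothorax than in both other tissues. The cephalothorax arrays lay on 2 slides that each held both phases, with 2 arrays against 2 on the first and 1 against 1 on the second. With slide as a fixed block, 32 probes were called, 31 higher and 1 lower. The median difference of all 351 probes was 0.29 within the first slide and 0.23 within the second. For the 38 risen probes these medians were 1.25 and 1.67, a description only, since the probes were called on the same arrays.

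HPA-N-S01-0018 (bases 533 to 567) had the largest rise. On the scale of the 6 cephalothorax arrays it read 7.46 before ablation, 6.91 at 2 h, 8.05 at 24 h, 10.38 at the vitellogenic stage, 10.38 at the round rod stage and 10.15 at the elongated rod stage. The phases did not overlap, and the change was 2.83 ± 0.29, or 7.13-fold (limma adjusted p = 0.00535), while its other probe, at bases 251 to 285, differed by 1.69 without passing the threshold (limma adjusted p = 0.0858). HPA-N-S01-0603 (bases 590 to 624) read 8.42, 8.23 and 9.11 and then 10.76, 10.94 and 11.32 in the same order, a rise of 2.42 ± 0.28. Its probe at bases 414 to 448 gave 0.18 (limma adjusted p = 0.938), so the 2 probes of this EST disagreed.

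Other ESTs rose at every probe. HPA-N-S01-0296 rose by 1.53 to 1.69 at its 3 probes, and at bases 177 to 211 it read 10.55, 9.45 and 10.54 and then 11.86, 11.68 and 12.08. HPA-N-S01-0718 (bases 68 to 102) read 9.75, 9.75 and 10.15 and then 11.80, 11.51 and 11.46, a rise of 1.71 ± 0.18. HPA-N-S01-0527 (bases 335 to 369) read 8.63, 8.22 and 9.37 and then 11.48, 10.73 and 11.26, a rise of 2.41 ± 0.35. In each of these the 3 vitellogenic arrays were above the 3 previtellogenic ones. That is a description only, since the probes were called on the same arrays. The same order was found for 85 of the 351 probes (24.2%), beside 349 (15.6%) of all 2240 probes. HPA-N-S01-0527 and HPA-N-S01-0599 were the other targets, beside HPA-N-S01-0296 and HPA-N-S01-0718, whose probes all rose. In 25 of the 29 targets every probe had a positive change. These targets were chosen for holding a risen probe, and the median change of all 351 probes was itself positive, at 0.23. The count of 25 is therefore a description only.

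The 4 lower probes came from 3 targets. HPA-N-S01-0179 (bases 151 to 185) read 11.68, 13.36 and 14.21 and then 10.37, 10.08 and 10.45, without overlap and with a wide spread in the first phase, a fall of -2.78 ± 0.62 (limma adjusted p = 0.0379). Its probe at bases 7 to 41 fell by -2.22. HPA-N-S01-0595 (bases 297 to 330) fell by -1.29 ± 0.28, whereas its other 2 probes gave 0.89 and 0.31 and were not called. HPA-N-S01-0751 (bases 257 to 291) fell by -1.0 ± 0.22.

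**Figure D5:**
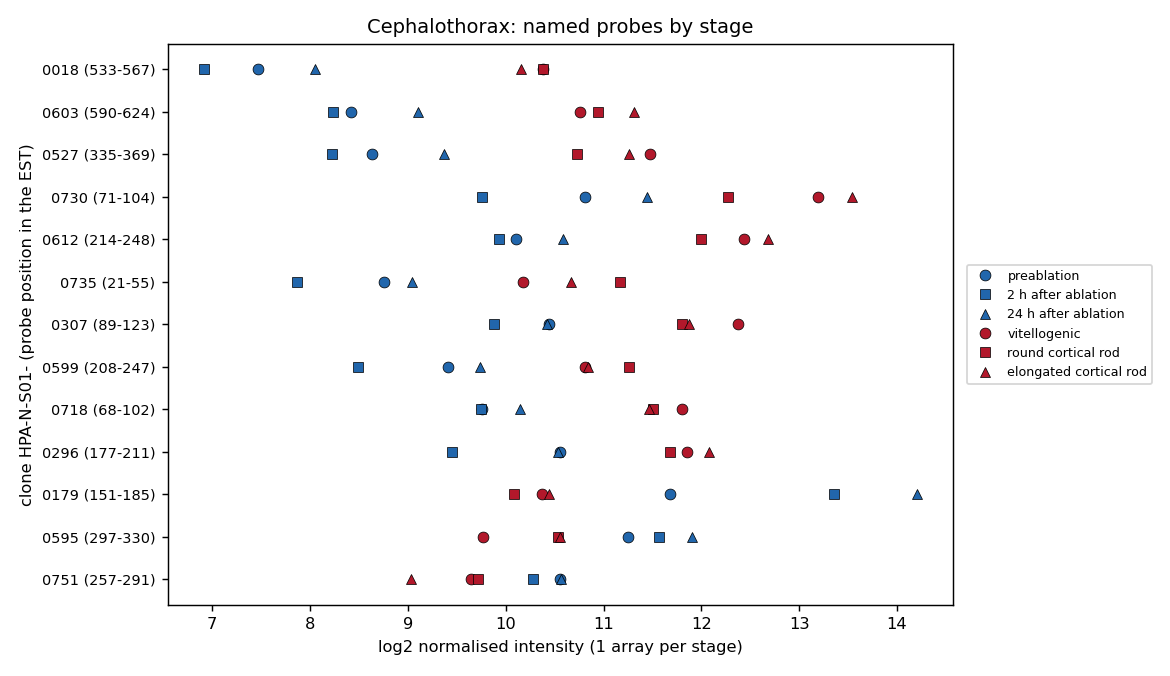
Log2 normalised intensity (horizontal axis) of 13 named probes on the 6 cephalothorax arrays, 1 array per stage, previtellogenic stages in blue and vitellogenic phase in red. The upper 10 probes have all red points to the right of all blue ones, as for HPA-N-S01-0018 at 10.15 to 10.38 against 6.91 to 8.05, and the lower 3 have the reverse order. The probes were chosen by their calls on these same arrays.

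Among the clones brightest in cephalothorax, HPA-N-S01-0731 (bases 6 to 40) differed by 0.47 ± 0.20 (limma adjusted p = 0.238) and HPA-N-S01-0577 (bases 48 to 81) by -0.79 ± 0.40 (limma adjusted p = 0.317), and neither passed the test. HPA-N-S01-0001 rose at bases 279 to 313 by 1.29 (limma adjusted p = 0.0219), while its other probes gave -0.42 and -0.21. HPA-N-S01-0534 had 1 risen probe of 2, with changes of 0.31 and 1.49. The bright clones HPA-N-S01-0193, HPA-N-S01-0518, HPA-N-S01-0571, HPA-N-S01-0642, HPA-N-S01-0698 and HPA-N-S01-0706 had no risen probe. The count of 42 depended on single arrays, each stage having 1: it was 11 without the elongated rod array, 14 without the 2 h array, 25 without the preablation array, 26 without the round rod array, 27 without the vitellogenic array and 63 without the 24 h array. It was 25 when each array was scaled to 1 median and 2 by the methods' t-test.

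Other probe sets moved between the same arrays, among them vitellogenin, which the hepatopancreas also makes. The number of ovarian library probes above the level was 231, 222 and 232 on the previtellogenic arrays and 215, 162 and 159 on the vitellogenic ones, and 15 of these 345 probes were called higher and 77 lower. The 5 vitellogenin probes had a median of 6.94, 7.25 and 7.05 and then 14.04, 13.78 and 13.67, and the 12 probes of the egg envelope genes peritrophin and thrombospondin had 9.90, 9.74 and 11.35 and then 8.69, 7.87 and 8.10. All 13 muscle probes were above the level throughout, with medians of 11.50 to 11.99 and then 11.81 to 12.36, and 2 were called higher. The 3 haemocyte probes were above it throughout, with 1 called higher, and none of the 23 digestive gland probes was called. The part of these in the changes of the hepatopancreas ESTs was not tested.

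In wild ovary and wild eyestalk no change with phase was called. In ovary limma called 0 of the 351 probes and 0 of all 2240 probes (0%), with 6 arrays per phase, and 6 probes had an unadjusted p under 0.05. The methods' t-test called 0, with 9 at an unadjusted p under 0.05. The overlapping clones HPA-N-S01-0718 (bases 420 to 454) and HPA-N-S01-0546 (bases 430 to 464) differed by 0.60 ± 0.20 and 0.58 ± 0.26, each with a limma adjusted p of 0.976. In eyestalk limma called 0 of the 351 probes beside 0.625% of all probes, with 15 at an unadjusted p under 0.05, and the t-test also called 0, with 15. HPA-N-S01-0709 (bases 545 to 579) had 9.26, 9.66 and 11.10 as its lowest, median and highest in the first phase and 8.78, 8.91 and 9.44 in the second, which overlapped, a change of -0.89 ± 0.26. A moderated F test over the 6 stages called 0 in ovary and 0 in eyestalk (0% of all probes in each), with 3 and 1 at an unadjusted p under 0.05.

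The last comparison set captive against wild females. In previtellogenic ovary, with 2 captive and 6 wild arrays, 62 of the 351 probes (17.7%) were higher in captive and 31 (8.83%) lower, beside 13.5% and 9.02% of all probes, so the hepatopancreas ESTs were called about as often as the array as a whole. Of these 93 probes, 40 were above the level on no ovary array, and 44 were above it on 50% or more of the arrays of the higher group, 37 of them higher in captive. The captive ovary arrays shared 1 slide that held no wild array, so slide and origin cannot be told apart. The count was 40, with 26 higher and 14 lower, when each array was scaled to 1 median, which moved the median of all probes from -0.03 to -0.21. It was 23 of 145 testable probes after a filter on dim probes, 28 with only these groups in the fit, 23 by the methods' t-test and 54 without the captive preablation array.

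HPA-N-S01-0139 (bases 185 to 219) had the largest difference. It read 8.04, 8.57 and 9.99 (lowest, median and highest) on the wild previtellogenic arrays, 13.94 on the captive preablation array and 10.78 on the captive post-ablation array. Both captive arrays were above all 6 wild ones, by 3.57 ± 0.70 or 11.9-fold (limma adjusted p = 0.00251), but without the preablation array the difference was 2.06 (limma adjusted p = 0.0755). In the vitellogenic phase the captive arrays read 9.46 and 11.64 against 7.88 to 8.48 in wild.

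HPA-N-S01-0610 (bases 65 to 99) read 7.68, 7.97 and 9.17 in wild and 11.92 and 9.78 in captive, 6.55-fold higher. HPA-N-S01-0568 (bases 132 to 167) read 7.69, 7.92 and 9.04 in wild and 11.15 and 10.05 in captive, 5.58-fold higher. HPA-N-S01-0641 (bases 485 to 518) read 6.83, 7.19 and 7.56 in wild and 9.29 and 8.82 in captive, 3.73-fold higher. In all of these the captive preablation array was the highest and neither captive array overlapped the wild ones. In the other direction, HPA-N-S01-0612 (bases 126 to 160) read 9.46, 10.34 and 10.53 in wild and 7.55 and 9.34 in captive, 3.31-fold lower. HPA-N-S01-0379 (bases 225 to 259) read 10.24, 10.41 and 10.66 in wild and 9.96 and 7.80 in captive, a difference of -1.56 ± 0.41. Neither overlapped, although the captive array that was lowest was the preablation array for the first and the post-ablation array for the second. Beside these, 9 of the 345 ovarian library probes were called higher in captive and 34 lower, with a median of -0.35. Of the digestive gland markers, 7 of 23 probes (30.4%) were higher and 3 lower, and of the eye and neural markers 17 of 87 (19.5%) were higher and 7 lower, beside 13.5% of all probes higher. The captive preablation array had 57.7% of the ovarian library probes above the level, where the other captive ovary arrays had 78.0% to 82.6% and the wild ovary arrays 70.1% to 87.0%. The part of these differences in the result was not tested.

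In the vitellogenic phase of ovary, limma called 0 of the 351 probes between captive and wild, beside 0.0446% of all probes, with 52 at an unadjusted p under 0.05 and a smallest adjusted p of 0.0604. The methods' t-test called 0, with 74 at an unadjusted p under 0.05. Between the phases of captive ovary, with 2 arrays each, 9 probes were higher in the vitellogenic phase and 28 lower, beside 2.77% and 6.7% of all probes. With each array scaled to 1 median the split was 11 higher and 7 lower, and the median of all probes moved from -0.01 to 0.18. With only those 4 arrays in the fit, and by the t-test, the count was 0, and after the filter on dim probes it was 1. Leaving out 1 captive array at a time gave 8 to 64.

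The fallen probes were in part those higher in captive previtellogenic ovary, and these 2 contrasts share the captive previtellogenic arrays, so that 31 probes were called in both. HPA-N-S01-0641 (bases 485 to 518) went from 9.29 and 8.82 to 7.40 and 7.65, a change of -1.53 ± 0.24, and HPA-N-S01-0568 (bases 132 to 167) from 11.15 and 10.05 to 8.40 and 9.33, a change of -1.73 ± 0.43. HPA-N-S01-0576 (bases 241 to 275) rose by 1.33 ± 0.37. The change between phases itself differed between captive and wild ovary for 8 probes (2.14% of all probes were called in either direction), 1 higher and 7 lower in captive, beside 0.625% and 1.52% of all probes. That count was 0 with each array scaled to 1 median, 0 after the filter on dim probes and 0 without the captive elongated rod array, and 43 without the captive post-ablation array.

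In eyestalk the captive and wild females differed at few of these ESTs. In the previtellogenic phase 3 of the 351 probes were higher in captive and 0 lower, beside 0.446% and 0.268% of all probes. HPA-N-S01-0306 (bases 355 to 388) read 10.08, 10.48 and 11.62 in wild and 12.73 and 12.56 in captive, without overlap, a difference of 2.05 ± 0.36 or 4.14-fold (limma adjusted p = 0.0262). The 2 other probes of this EST were not called, and the other 2 called probes, of HPA-N-S01-0295 (bases 155 to 189) and HPA-N-S01-0723 (bases 353 to 387), were above the level on no eyestalk array. This count was 0 with each array scaled to 1 median, with slide as a random block, with only these groups in the fit, with matched stages and by the t-test. Leaving out 1 array gave from 0, without the first wild 2 h array or the first wild 24 h array, to 33, without the second wild 24 h array.

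For the other eyestalk contrasts limma called 0 of the 351 probes. Captive against wild in the vitellogenic phase had 29 at an unadjusted p under 0.05, beside 0% of all probes called, and the t-test called 0 with 34. Between the phases of captive eyestalk 35 had an unadjusted p under 0.05, beside 0% of all probes called, and the t-test called 0 with 35. The difference of the phase change between captive and wild eyestalk had 18, beside 0.0446% of all probes called. In captive ovary HPA-N-S01-0642 (bases 128 to 164), a probe above the level on no wild ovary array, read 7.90, 8.47, 6.91 and 6.79 over the 4 captive stages and was above the level on 1 of these arrays.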

How the data were processed

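The deposited scanner output gives each spot's mean foreground intensity, linear and per the file headers, with no background column. RNA was amplified by in vitro transcription from a T7 oligo dT primer and labelled with Cy5, per the labels' protocols. The sources used here do not name the scanner or the image software. The authors' value table held the same intensity for 2239 probes (85082 of 85082 values equal within 0.01) with column medians of 72.3 to 384, and 0 value columns were unmapped. The foreground mean was corrected by normexp (offset 50), turned into log2 values and brought to the same quantiles on all arrays of a fit. Levels of the wild tissues are from 30 wild arrays, those of the phases and origins from 16 ovary, 16 eyestalk or 6 cephalothorax arrays. Probes were tested with lmFit and eBayes (limma 3.58.1, R 4.3.3), with Benjamini-Hochberg adjustment over 2240 probes and a threshold of 0.05, on a script tested on simulated data. Ovary and eyestalk were each fitted with 4 means (origin by phase). Tables and figures used Python 3.11.15, pandas 2.3.3 and matplotlib 3.10.9. Probes of an EST were tested one by one. The non-specific level was each array's 90th percentile of 24 probes from 5 vertebrate species, the shared stretches were of at least 20 bases on either strand, and slides were read from raw file names that arrays share.

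The text names, per comparison, up to 10 called probes with the largest change in each direction, 1 per target, among those above the level on 50% or more of the higher group's arrays, or the 5 with the smallest p where fewer than 4 were called. It adds the brightest targets of each wild tissue, targets with 3 probes called one way in both cephalothorax contrasts, and targets with opposite calls. The clones in the strand and overlap pairs, and the phase values of the brightest cephalothorax clones, were singled out after their values were seen. The members, lists and tests were chosen with earlier results of these data known. Alternatives were another background treatment, median foreground, median scaling, a filter on dim probes, target means, slide and replicate blocks, a plain t-test named the methods' t-test, matched stages and leaving out each array. The number of arrays limits the precision.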

Additional observations from a re-analysis of the deposited data

Results flagged for a closer look

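Arrays that lay apart from the rest of their group were searched for in 174 groups of 4 to 10 arrays, of which chance alone would mark about 1 in 20, and 10 were found. The share of hepatopancreas probes above the non-specific level was highest, in wild eyestalk of the vitellogenic phase, on the first round rod array, at 35.6%. In cephalothorax HPA-N-S01-0001 (bases 332 to 366) was lowest on the elongated rod array, at 12.15. In wild ovary 3 of the values were from 2 h after ablation: HPA-N-S01-0546 (bases 430 to 464) was low on the first array at 8.99, HPA-N-S01-0610 (bases 65 to 99) was high on that array at 9.17, and HPA-N-S01-0691 (bases 463 to 497) was low on the second array at 6.35. In the vitellogenic phase of wild ovary, HPA-N-S01-0775 (bases 2 to 36) was low on the first round rod array at 10.18, and HPA-N-S01-0519 (bases 193 to 227) was high on the first vitellogenic array at 13.19. In wild eyestalk, HPA-N-S01-0609 (bases 565 to 599) at 10.68 and HPA-N-S01-0306 (bases 355 to 388) at 11.62 were both highest on the second 24 h array, and HPA-N-S01-0016 (bases 503 to 539) at 8.03 on the first round rod array of the vitellogenic phase. All probe values are log2 normalised intensities.

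The change between phases differed between captive and wild ovary, by the interaction term of the limma fit, for 8 probes with adjusted p from 0.0193 to 0.0465. The difference of the changes was 0.89 for HPA-N-S01-0014 (bases 439 to 473), -1.96 for HPA-N-S01-0142 (bases 85 to 122), -0.95 for HPA-N-S01-0309 (bases 193 to 227) and -0.82 for HPA-N-S01-0595 (bases 297 to 330). It was -0.74 for HPA-N-S01-0635 (bases 37 to 71), -1.58 for HPA-N-S01-0641 (bases 485 to 518), -1.15 for HPA-N-S01-0642 (bases 128 to 164) and -1.14 for HPA-N-S01-0694 (bases 78 to 116). Of these probes, HPA-N-S01-0142 was above the level on all 6 wild vitellogenic arrays and 2 wild previtellogenic ones, HPA-N-S01-0641 on 1 wild array, and the other 6 on no wild ovary array. In HPA-N-S01-0641 the captive arrays read 9.29 and 8.82 and then 7.40 and 7.65, where the wild phases had medians of 7.19 and 7.20. None of the 8 calls held when each array was scaled to 1 median.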

How the results depend on the processing

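Precision is limited by the number of arrays, 1 per cephalothorax stage and 1 per captive stage, and no array showed 49 of the 351 probes above the non-specific level. The counts of 242, 244 and 187 calls between tissues kept within 1.5 times under normalisation, background, random slide block and single-array changes (227 to 244, 236 to 251 and 176 to 191 without 1 array). With target means they were 107, 123 and 83 of 145 targets, fewer features being tested, and 86 for ovary against eyestalk after the filter on dim probes. The cephalothorax-only group had 39 probes, instead of 62, with the 75th percentile as the level and 77 with the 100th. Calls between cephalothorax phases fell from 42 to 25 with median scaling and to 2 by the methods' t-test, and ran from 11 to 63 without 1 array. Captive against wild previtellogenic ovary went from 93 to 40 with median scaling, 23 after the dim filter, 28 with only the groups compared and 23 by the t-test, and from 54 to 105 without 1 array. For vitellogenic ovary the count was 1 with median scaling and 0 to 1 without 1 array. Captive against wild previtellogenic eyestalk, 3 calls, became 1 after the dim filter and 0 with median scaling, the random slide block, only the groups compared, matched stages and the t-test, and ran from 0 to 33 without 1 array. The captive ovary phases, 37 calls, became 18 with median scaling, 1 after the dim filter and 0 with only the groups compared and by the t-test, and ran from 8 to 64 without 1 array. The 8 calls for the difference of phase changes in ovary became 0 with median scaling and after the dim filter, and 0 to 43 without 1 array. For the captive eyestalk phases leaving out 1 array gave 0 to 1 calls, and for all remaining comparisons 0 to 0. One probe turned: HPA-N-S01-0306 (bases 355 to 388) between captive ovary phases was -1.11 and became 0.23 with median scaling. Of the other alternatives for single probes, 2700 kept their direction and their side of the threshold, called or not, 285 lost the call and 4 gained it. Replicate numbers were not taken as pairs: correlations of same-numbered arrays ran from -0.32 to 0.64 in ovary, from -0.14 to 0.58 in eyestalk, and from 0.093 to 0.365 between ovary and eyestalk of 1 stage. With the replicate block ovary against eyestalk had 218 calls and the phase and stage comparisons 0. The cause of these shifts was not tested.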
